A study of Homo sapiens with 6 samples.

Results

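The transcripts of 10 genes around the transcriptional coactivators YAP and TAZ were followed in 8505C cells, a cell line from anaplastic thyroid carcinoma (ATC), after knockdown of NUF2. The set was defined by gene name and holds the coactivators YAP1 and WWTR1 (the gene of TAZ), the DNA-binding partners TEAD1 and TEAD4, the target genes CCN1, CCN2 and ANKRD1, and AMOTL2, LATS2 and AJUBA, which act on the pathway. The set and the lists used further on were chosen with earlier results of these data known. Their shares beside those of all genes are therefore descriptive. All 10 members had a row among the 32985 genes of the deposited table. RNA was sequenced from 2 groups of 3 libraries, both with the label 24 h. In the siCtrl group cells were transfected with a control siRNA, and in the siNUF2 group with a single siRNA sequence against NUF2, a component of the kinetochore. The libraries are bulk RNA of 1 established line, and the labels give no other agent or genetic change for either group. Neither the labels nor the methods state whether the 3 libraries of a group were separate cultures. The p-values set differences against the spread between these libraries, which may be technical. In bulk RNA, fewer cells of a kind and less RNA per cell cannot be told apart.

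YAP and TAZ carry no DNA-binding domain and act on promoters and enhancers through the TEAD factors. When the Hippo kinases MST1/2 and LATS1/2 are active, LATS phosphorylates YAP and TAZ, which are then kept in the cytoplasm or degraded, so that much of the pathway's control lies in the protein and not in the transcript. CCN1, CCN2 and ANKRD1 are the transcripts most often read as its output, and AMOTL2 and LATS2 are both targets and inhibitors of YAP and TAZ, closing a negative feedback loop.

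Depth and knockdown were checked first. The libraries held between 61257859 and 69755291 counts each. Counts of the members ranged from 1174 per library, for LATS2, to 137657, for CCN1. NUF2 was expressed at 14.8, 14.5 and 12.2 FPKM (a level per transcript length and per library total) in the siCtrl libraries and at 1.53, 2.05 and 1.56 FPKM in the siNUF2 libraries. Its transcript fell to 12.4% of the siCtrl mean, with a log2 fold change of -2.99 (SE 0.17, adjusted p = 5.1e-04, edgeR). Of the thyroid markers, NKX2-1 ranged from 14.6 to 21.5 FPKM, PAX8 stayed under 1 FPKM, and TG, SLC5A5 and FOXE1 were at or near 0 in both groups. The epithelial keratins KRT8 and KRT18 and the mesenchymal marker VIM were high, whereas CDH1 was listed at 0 in every siCtrl library. None of the 4 markers of leukocytes, endothelium and fibroblasts had a mean FPKM of 1 or more, and their summed level was 1.03 to 1.96 FPKM in siCtrl and 0.642 to 2.18 FPKM in siNUF2.

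The promoter stretches of CCN2 and ANKRD1 are shown first because they hold more than 1 copy of the core TEAD element, the sequence through which YAP and TAZ reach these genes. The promoter windows came from RefSeq (GRCh38.p14) and run from 250 bases before to 50 bases after a start site. Of the members, 7 had a window in this table. CCN1, TEAD1 and TEAD4 had none. Both strands were searched for GGAATG, which reads CATTCC on the other strand. The CCN2 stretch lies at chr6:131951452-131951551 and the ANKRD1 stretch at chr10:90921200-90921317, both on the minus strand. Each is printed 5′ to 3′ with the element in capitals.
CCN2, from 179 to 80 bases before the start site: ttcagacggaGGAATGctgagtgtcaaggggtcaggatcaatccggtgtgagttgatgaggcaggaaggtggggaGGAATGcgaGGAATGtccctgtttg
ANKRD1, from 230 to 113 bases before the start site: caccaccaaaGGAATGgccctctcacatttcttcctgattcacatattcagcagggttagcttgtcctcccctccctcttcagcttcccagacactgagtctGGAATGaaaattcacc
The CCN2 window holds 3 copies, at 169, 104 and 95 bases before the start, and only 0.128% of the 35116 windows in the table (45 windows) hold as many. The ANKRD1 window holds 2 copies, at 220 and 128 bases before the start, and 1.37% of all windows hold at least 2. A single copy was found in YAP1 (162 bases before the start), in AMOTL2 (69 before, on the other strand), in AJUBA (59 before) and in LATS2 (9 bases after the start). AMOTL2 and AJUBA have 2 windows each and hold the element in 1 of them, and neither of the 2 WWTR1 windows holds it. The element is present in 6 of the 10 member windows, beside 14.0% of all windows, and in at least 1 window of 6 of the 7 members with any, beside 16.7% of all genes in the table. These are matches of letters, and no binding was measured.

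The levels of the members in the siCtrl libraries spanned a wide range. The targets CCN1 and CCN2, which code for secreted matricellular proteins, were the most abundant at 296 ± 68.8 and 266 ± 78.1 FPKM (mean ± SD, n = 3), and their libraries overlapped. ANKRD1, a nuclear ankyrin repeat protein, followed at 60.7 ± 21.2 FPKM, below every CCN2 value, and did not differ from AMOTL2 (39.4 ± 2.87 FPKM) beyond its spread. TEAD1 (21.2 ± 2.61 FPKM), AJUBA (16.6 ± 3.76 FPKM) and YAP1 (16.4 ± 1.20 FPKM) formed the next tier. AJUBA overlapped both of the others, while every TEAD1 library lay above every YAP1 library. TEAD4 (9.21 ± 1.08 FPKM) and WWTR1 (8.68 ± 0.946 FPKM) overlapped each other and lay below YAP1. LATS2 was the lowest at 3.81 ± 1.06 FPKM. Over all 6 libraries CCN1 had a mean FPKM above 99.4% of the 11725 genes tested and CCN2 above 98.8%, while WWTR1 stood at 57.1% and LATS2 at 39.0%. In the siNUF2 libraries the mean of YAP1 came above those of TEAD1 and AJUBA, although the libraries of all 3 overlapped there. Neither CCN1 and CCN2 nor TEAD4 and WWTR1 overlapped any longer.

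**Figure D1:**
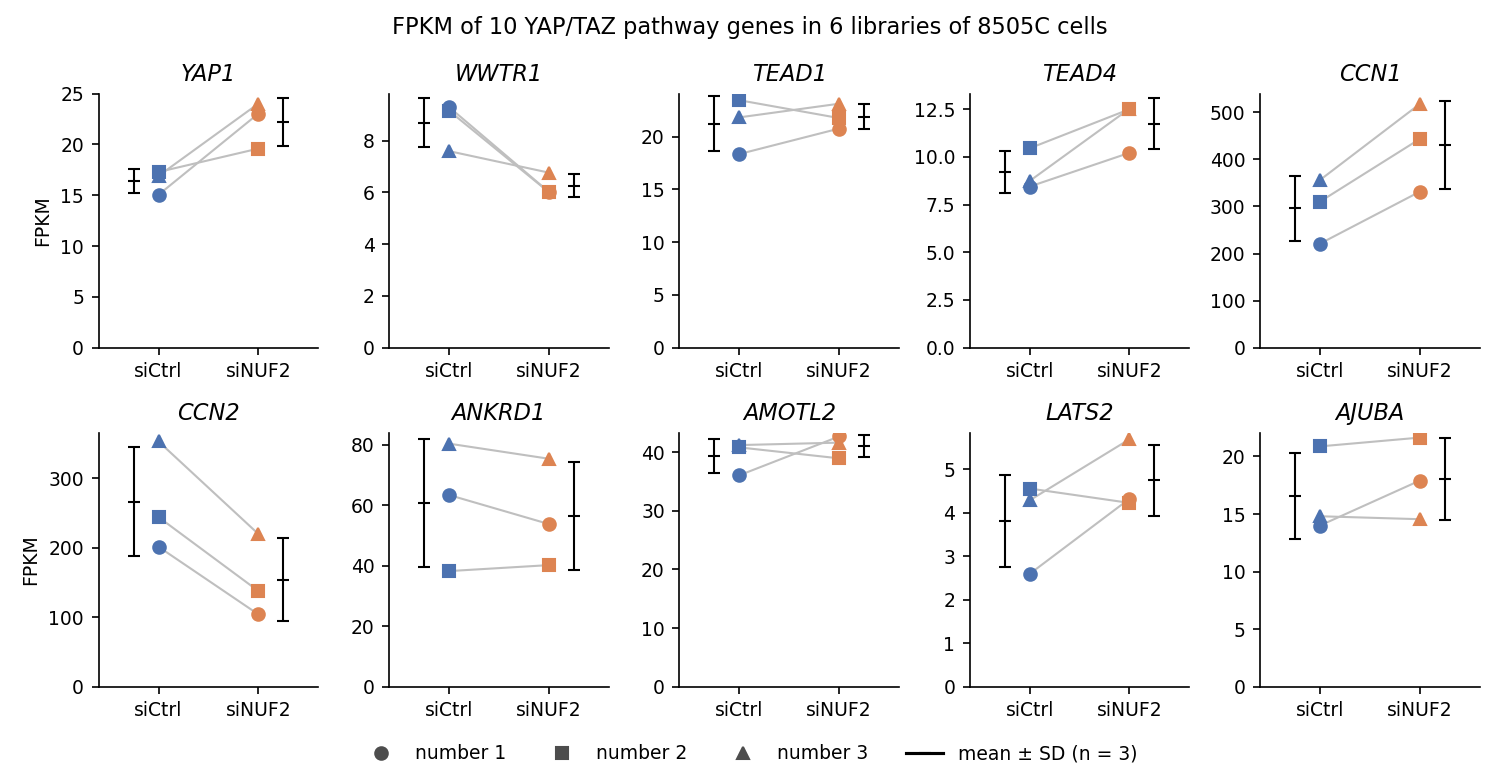
FPKM of the 10 genes in the siCtrl (blue) and siNUF2 (orange) libraries, each on its own linear axis from 0. Symbols give the replicate number, grey lines join libraries with the same number, and black bars give the mean ± SD (n = 3). The groups are separate for YAP1 and WWTR1 and overlap for the other 8 genes, and every line runs upward to siNUF2 for CCN1 and downward for CCN2.

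The members were then compared between the groups with edgeR over the 11725 genes whose mean FPKM reached 1, calling a gene at a Benjamini-Hochberg adjusted p under 0.05. All 10 members passed this filter. None of the 10 was called in the fit of group alone, the planned main fit, in which 3.99% of all genes were called. By unadjusted p under 0.05 in the same fit, 5 members (YAP1, WWTR1, TEAD4, CCN1 and CCN2) passed, against 18.2% of all genes. The replicate number given by the labels is shared by 1 siCtrl and 1 siNUF2 library, and libraries with the same number deviate together across genes. With that number as a block, 4 of the 10 members were called, against 14.5% of all genes: YAP1 and CCN1 were higher in siNUF2, and WWTR1 and CCN2 lower. Most members are well above the filter in level. With a filter at a mean FPKM of 5, the blocked fit called 1303 of 6542 genes and the same 4 members. Without the block, DESeq2 called 3 members (YAP1 and CCN1 higher, WWTR1 lower; 8.47% of all genes with an adjusted p), limma on log2(FPKM + 1) called 0 (3.08%), and the F-test on log2(FPKM + 1) called 0 (0.665%). The log2 fold change was positive for 7 members and negative for 3. Its median was 0.11, beside 0.0069 over all genes tested, and the median of its absolute size was 0.35, beside 0.17 over all genes. The FPKM of the groups did not overlap for 2 of the 10 members, YAP1 and WWTR1, against 23.9% of all genes.

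**Figure D2:**
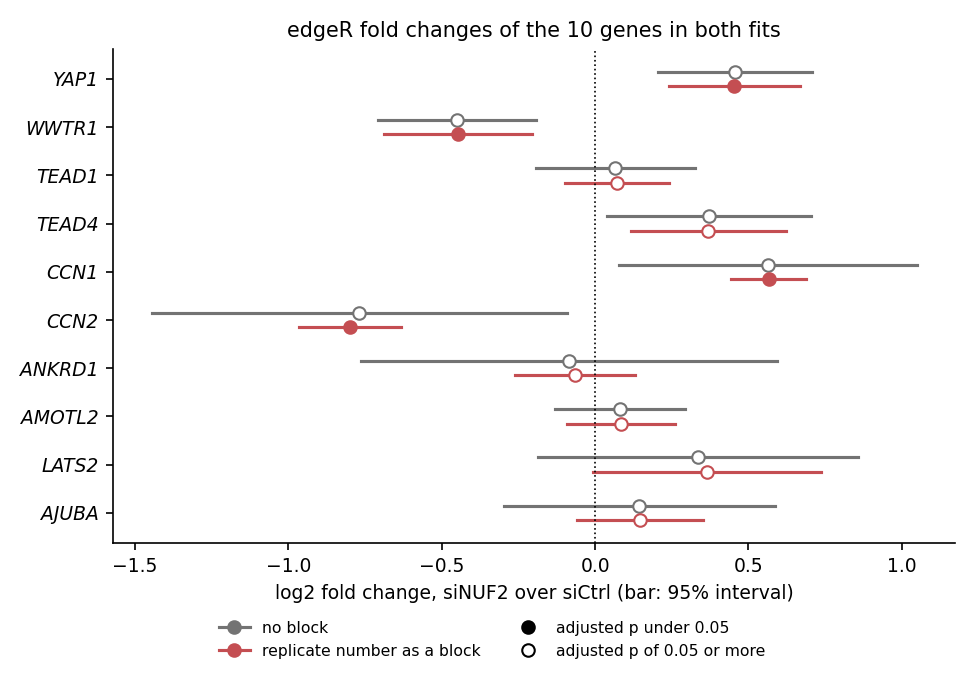
Log2 fold change, siNUF2 over siCtrl, of the 10 genes by edgeR without (grey) and with (red) the replicate number as a block. Bars are 95% intervals and filled points have an adjusted p under 0.05. The points of the 2 fits nearly coincide, the bars of CCN1, CCN2 and ANKRD1 are much shorter with the block, and filled points appear with the block for YAP1, WWTR1, CCN1 and CCN2.

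The coactivators differed between the groups in opposite directions. YAP1 was at 15.0, 17.3 and 16.9 FPKM in siCtrl and at 23.0, 19.6 and 24.0 FPKM in siNUF2. Every siNUF2 library lay above every siCtrl library, and the mean went from 16.4 ± 1.20 to 22.2 ± 2.32 FPKM, a ratio of 1.35 (exact permutation test, two-sided p = 0.1, the smallest that 3 against 3 libraries allow). Its log2 fold change was 0.46 (SE 0.11, 95% interval 0.21 to 0.71, adjusted p = 0.0639, edgeR), and with the block 0.45 (SE 0.092, adjusted p = 0.0189). WWTR1 was at 9.30, 9.16 and 7.59 FPKM in siCtrl and at 6.02, 6.01 and 6.76 FPKM in siNUF2. Here every siNUF2 library lay below every siCtrl library, and the mean went from 8.68 ± 0.946 to 6.26 ± 0.431 FPKM (exact permutation p = 0.1). The log2 fold change of WWTR1 was -0.45 (SE 0.11, 95% interval -0.71 to -0.19, adjusted p = 0.0738, edgeR), and the same size with the block (SE 0.10, adjusted p = 0.0296). Both blocked calls were lost without the libraries of number 1, a fit with fewer libraries, where the log2 fold change was 0.37 for YAP1 (adjusted p = 0.0616) and -0.36 for WWTR1 (adjusted p = 0.0730). Without those of number 2 it was -0.39 for WWTR1 (adjusted p = 0.0936). The within-number differences in log2 CPM, counts scaled to the library total times its TMM factor (the edgeR correction for composition), were 0.62, 0.22 and 0.52 for YAP1 and -0.62, -0.57 and -0.15 for WWTR1, so each had the same sign in all 3 numbers while their sizes varied.

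As the directions were opposite, the balance of the coactivators was also described, a choice made after their values were seen. The ratio of YAP1 to WWTR1 in FPKM was 1.62, 1.89 and 2.23 in siCtrl and 3.83, 3.26 and 3.55 in siNUF2. The groups did not overlap, and the mean ratio was 1.91 ± 0.305 in siCtrl and 3.55 ± 0.283 in siNUF2, 1.86-fold higher (exact permutation p = 0.1). YAP1 made up 65.4% ± 3.60 (SD, n = 3) of the summed FPKM of both genes in siCtrl and 77.9% ± 1.38 in siNUF2. The sum itself was 25.1 ± 1.17 FPKM in siCtrl and 28.5 ± 2.64 FPKM in siNUF2, and its groups overlapped (exact permutation p = 0.2). These are transcript levels, and phosphorylation and location of the proteins were not measured in these libraries.

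The TEAD factors, which bring YAP and TAZ to DNA, were not called by edgeR in either fit, while DESeq2 with the block called TEAD4. TEAD1 was at 18.3, 23.4 and 21.8 FPKM in siCtrl and at 20.8, 21.7 and 23.1 FPKM in siNUF2, all of these within the siCtrl range. Its log2 fold change of 0.07 had a 95% interval of -0.19 to 0.33 (adjusted p = 0.824, edgeR). TEAD4 was at 8.44, 10.4 and 8.73 FPKM in siCtrl and at 10.2, 12.5 and 12.5 FPKM in siNUF2. Only the lowest siNUF2 library lay within the siCtrl range, and the log2 fold change was 0.37 (SE 0.14, 95% interval 0.04 to 0.70, adjusted p = 0.231, edgeR), or 0.37 with an adjusted p of 0.0628 with the block. By DESeq2 with the block the adjusted p of TEAD4 was 0.0233. TEAD4 was higher in siNUF2 within each of the 3 numbers, by 0.28, 0.30 and 0.53 on the log2 scale. Among the paralogs outside the 10 genes, the log2 fold change was 0.51 for TEAD2 (adjusted p = 0.171, edgeR) and 0.16 for TEAD3 (adjusted p = 0.603). TEAD1 supplied 51.5% ± 1.90 of the summed FPKM of TEAD1 to TEAD4 in siCtrl and 47.2% ± 2.09 in siNUF2 (n = 3), and TEAD4 supplied 22.4% ± 0.896 and 25.3% ± 1.65. TEAD2 supplied 7.75% ± 0.628 and 9.60% ± 1.00, and TEAD3 18.4% ± 1.51 and 18.0% ± 1.97. The exact permutation p was 0.1 for the shares of TEAD1, TEAD2 and TEAD4 and 0.7 for that of TEAD3, and these shares too were formed after the values were seen.

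The matricellular targets CCN1 and CCN2 are neighbours in level and close homologues, and they went in opposite directions. CCN1 was at 221, 310.4 and 356 FPKM in siCtrl and at 332, 444 and 518 FPKM in siNUF2. The groups overlapped, since the lowest siNUF2 library, number 1, lay below the highest siCtrl library, number 3, while within each number siNUF2 was the higher. The mean went from 296 ± 68.8 to 431 ± 93.8 FPKM (exact permutation p = 0.2), with a log2 fold change of 0.56 (SE 0.21, 95% interval 0.08 to 1.05, adjusted p = 0.211, edgeR). With the block CCN1 rose, by a log2 fold change of 0.57 (SE 0.053, adjusted p = 0.0012), and the within-number differences of 0.59, 0.55 and 0.56 had an SD of 0.021. CCN2 was at 201, 244 and 353 FPKM in siCtrl and at 104, 138 and 219.7 FPKM in siNUF2. Its groups overlapped as well, because number 3 of siNUF2 lay above number 1 of siCtrl. The mean went from 266 ± 78.1 to 154 ± 59.5 FPKM (exact permutation p = 0.2), with a log2 fold change of -0.77 (SE 0.29, 95% interval -1.45 to -0.09, adjusted p = 0.222, edgeR). With the block CCN2 fell, with a log2 fold change of -0.80 (SE 0.071, adjusted p = 0.0010) and within-number differences of -0.95, -0.79 and -0.67. The blocked calls of CCN1 and CCN2 remained when the libraries of any 1 number were left out. Those fits had fewer libraries to estimate the spread of each gene, so they are a weak check of the calls.

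The ratio of CCN1 to CCN2 within a library, another measure chosen after the values were seen, separated the groups although neither gene did. It was 1.10, 1.27 and 1.01 in siCtrl and 3.19, 3.22 and 2.36 in siNUF2. The means were 1.13 ± 0.133 and 2.92 ± 0.490, a 2.59-fold difference (exact permutation p = 0.1). Thus the siCtrl libraries held the 2 transcripts at nearly equal FPKM, and each siNUF2 library held at least 2.36 times as much CCN1 as CCN2.

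**Figure D3:**
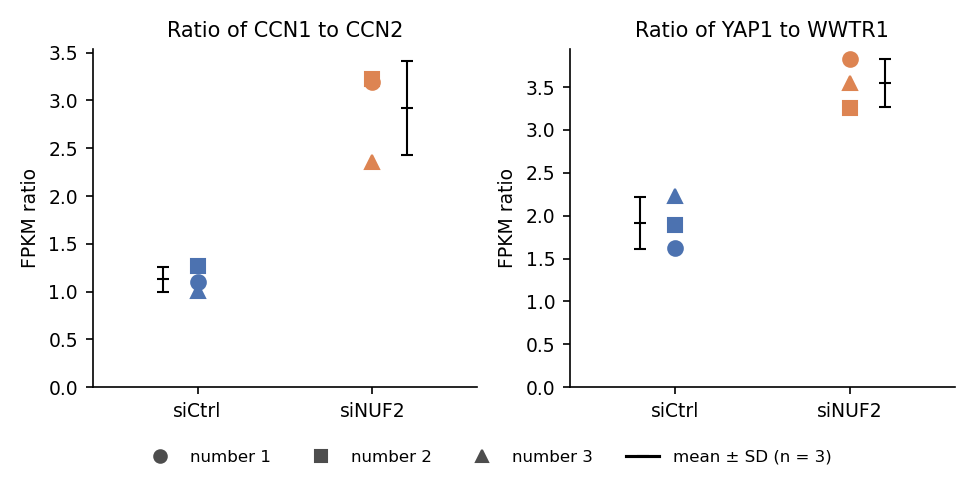
Ratio of CCN1 to CCN2 (left) and of YAP1 to WWTR1 (right), each from the FPKM of 1 library, on linear axes from 0. Symbols give the replicate number and black bars the mean ± SD (n = 3). In both panels all siNUF2 libraries lie above all siCtrl libraries, at 2.36 to 3.22 against 1.01 to 1.27 on the left and at 3.26 to 3.83 against 1.62 to 2.23 on the right.

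ANKRD1, the third classical target, was called in neither fit. It was at 63.4, 38.2 and 80.4 FPKM in siCtrl and at 53.8, 40.2 and 75.4 FPKM in siNUF2. The values paired closely by number and not by group. Its log2 fold change was -0.09, with a 95% interval of -0.76 to 0.59 (adjusted p = 0.921, edgeR), which with the block narrowed to -0.26 to 0.13 around -0.07 (adjusted p = 0.642).

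Of the members that act on the pathway, none was called in either fit. AMOTL2, an angiomotin-like protein that holds YAP and TAZ in the cytoplasm, was at 36.1, 40.8 and 41.2 FPKM in siCtrl and at 42.7, 39.0 and 41.6 FPKM in siNUF2. Its log2 fold change of 0.08 had a 95% interval of -0.13 to 0.29 (adjusted p = 0.718, edgeR). LATS2, a kinase that phosphorylates YAP and TAZ, was at 2.59, 4.56 and 4.29 FPKM in siCtrl and at 4.32, 4.23 and 5.69 FPKM in siNUF2. One siCtrl library, number 1, was low, and the log2 fold change of 0.34 had a 95% interval of -0.19 to 0.86 (adjusted p = 0.506, edgeR). With the block its adjusted p was 0.174, or 0.0429 without the libraries of number 2, where the log2 fold change was 0.58. AJUBA, a LIM protein that binds and restrains LATS kinases, was at 14.0, 20.9 and 14.8 FPKM in siCtrl and at 17.9, 21.6 and 14.6 FPKM in siNUF2, with number 2 the highest in both groups. Its log2 fold change was 0.14 (95% interval -0.30 to 0.59, adjusted p = 0.765, edgeR).

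The replicate number was then tested as a factor of its own, next to the group. For 4 of the 10 members, CCN1, CCN2, ANKRD1 and AJUBA, the level differed between replicate numbers (adjusted p = 0.0042, 0.0034, 0.0066 and 0.0429, edgeR), against 7.6% of all genes. With a filter at a mean FPKM of 5, the number was called for 727 of 6542 genes. With the groups averaged, the highest and lowest numbers of CCN1 were 0.68 apart on the log2 scale, those of CCN2 0.96, those of ANKRD1 0.99 and those of AJUBA 0.54. For each of these 4 genes the distance between numbers was larger than the size of the log2 fold change between the groups. That distance is taken between the extremes of 3 numbers, and the genes were picked by the number test. The 2 sizes are thus unlike measures and do not rank the number above the group. CCN1 and CCN2 had number 3 highest and number 1 lowest in siCtrl and in siNUF2, and ANKRD1 had number 3 highest and number 2 lowest in both. Thus these 3 targets shared their highest number, whereas neither coactivator was called by number (adjusted p = 0.629 for YAP1 and 0.942 for WWTR1). The median distance between the highest and lowest number was 0.42 over the 10 members and 0.27 over all genes tested. The labels do not say what libraries of a number share, and what moved with the number was not tested.

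**Figure D4:**
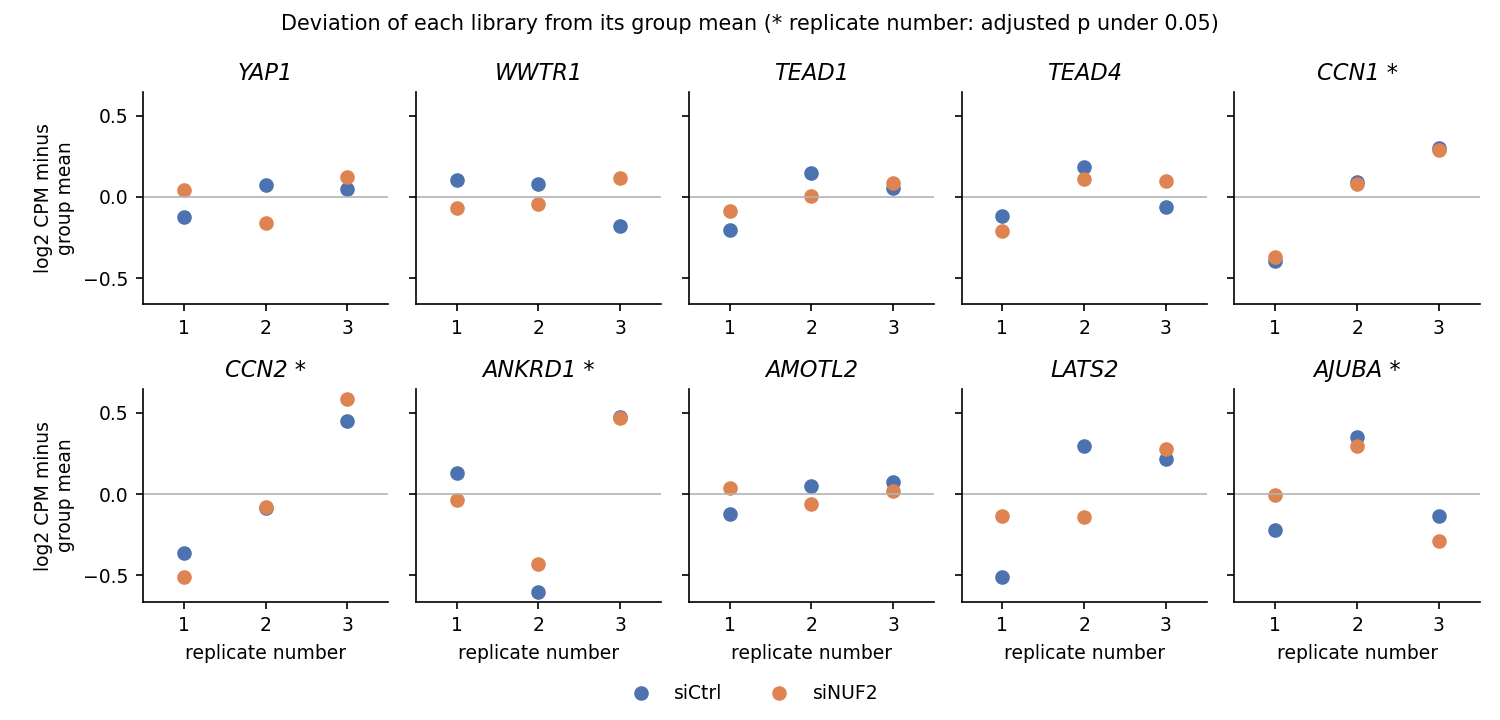
Deviation of each library from the mean of its group, in log2 CPM (counts scaled to the library total times its TMM factor), by replicate number, for the 10 genes (siCtrl blue, siNUF2 orange). An asterisk marks an adjusted p under 0.05 for the replicate number. In CCN1, CCN2 and ANKRD1 the blue and orange points of a number nearly coincide, whereas in YAP1 and WWTR1 the points lie closer to 0.

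The 3′ UTRs of the members were read next for TATGGAA, the word that pairs with the seed of the NUF2 siRNA, bases 2 to 8 of its antisense strand. The longest 3′ UTR per gene in GENCODE release 44 was searched on the transcribed strand only. The word was found in CCN1, CCN2, WWTR1 and YAP1 and not in the other 6 members, and in 16.1% of the 10174 genes tested that have a 3′ UTR of at least 50 bases. The sites lie at chr1:85583657-85583685 (CCN1, plus strand), chr6:131948462-131948490 (CCN2, minus strand), chr3:149520255-149520283 and chr3:149518901-149518929 (WWTR1, minus strand) and chr11:102232952-102232980 (YAP1, plus strand) of GRCh38. They are printed 5′ to 3′ with the word in capitals and 11 bases on each side.
CCN1: aagattttattTATGGAAttaaccattta
CCN2: atggatacttaTATGGAAattctgctcag
WWTR1, first site: aaattctactgTATGGAAtacaatgtaat
WWTR1, second site: agtagcaaagtTATGGAAtatcgtggaaa
YAP1: catgccttctaTATGGAAcatggcagaaa
Position 1 of the antisense strand is an A. The base opposite it is an A at the CCN2 site and a C at the YAP1 site, which do not pair with it. At the CCN1 site and both WWTR1 sites it is a T, which does. The 4 members with the word are those called by edgeR with the block, of which CCN2 and WWTR1 were lower and CCN1 and YAP1 higher in siNUF2. TEAD4, which DESeq2 with the block also called, holds no copy. Among the 40 tested regulators, partners and other targets described further on, 13 hold the word, and of the 10 called with the block 3 hold it (WWC1, ASAP1 and CCDC80) and 7 do not. The 3′ UTRs of CCN1 (908 bases) and CCN2 (1088 bases) are shorter than those of YAP1 (3484) and WWTR1 (3570), and the median over the members was 2050, beside 1503.5 over all genes. The part of these sites in the levels was not tested.

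The other genes of the pathway were taken from a list of 26 regulators and partners, of which 24 passed the filter (WTIP and DCHS1 did not). One of the 24 was called, 4.17% beside 3.99% of all genes, and the median log2 fold change was 0.04, with 14 positive and 10 negative. VGLL4, which competes with YAP and TAZ for TEAD, rose: it was at 2.66, 2.57 and 2.57 FPKM in siCtrl and at 6.01, 3.40 and 4.96 FPKM in siNUF2. Its log2 fold change was 0.90 (SE 0.19, adjusted p = 0.0453, edgeR), but leaving out any 1 library other than number 2 of siNUF2 gave an adjusted p of 0.114 to 0.138. With the block 4 of the 24 were called, 16.7% beside 14.5% of all genes. VGLL4 (log2 fold change 0.86, adjusted p = 0.0111), WWC1 (0.48, 0.0119), a scaffold of LATS activation also called KIBRA, and MAP4K4 (0.31, 0.0390), a kinase that acts beside MST1/2, rose, and SAV1 (-0.30, 0.0480), the scaffold of MST1/2, fell. The next largest fold changes without the block were those of TEAD2 (0.51) and WWC1 (0.48), and the lowest were those of WWC3 (-0.33), SAV1 (-0.31) and MOB1B (-0.27), none of them called. For LATS1, the paralog of LATS2, the log2 fold change was -0.07 (adjusted p = 0.872).

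The other 17 target genes of a published YAP/TAZ signature were treated in the same way. Of these, 16 were tested, and FOXF2 was not analysed here. One was called, 6.25% beside 3.99% of all genes, and the median log2 fold change was -0.09, with 7 positive and 9 negative. ASAP1, a GTPase-activating protein for Arf, fell from 14.6, 16.6 and 15.1 FPKM to 9.07, 10.8 and 9.64 FPKM, with a log2 fold change of -0.63 (SE 0.11, adjusted p = 0.0190, edgeR). Its adjusted p was 0.0569 to 0.0837 when any 1 library other than number 2 of siNUF2 was left out. With the block 6 of the 16 were called, 37.5% beside 14.5% of all genes. CCDC80 (log2 fold change 1.01, adjusted p = 6.7e-04), a secreted matrix protein, and IGFBP3 (0.72, 0.0064), which binds insulin-like growth factors, rose. GADD45A (-0.72, 0.0035), a stress response gene also known as a p53 target, RBMS3 (-0.64, 0.0113), an RNA-binding protein, ASAP1 (-0.63, 0.0021) and F3 (-0.45, 0.0032), tissue factor, fell. The members and these targets together thus held called genes of both directions, as CCN1, CCDC80 and IGFBP3 were higher and CCN2, F3 and GADD45A lower in the same libraries. Without the block the lowest of the list were GADD45A (-0.75, adjusted p = 0.112), RBMS3 (-0.68, 0.275) and ASAP1, and the highest were CCDC80 (1.03, 0.0517), IGFBP3 (0.78, 0.361) and NUAK2 (0.36, 0.448).

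The targets on this list also varied with the replicate number. The number was called for 8 of the 16 (50%, beside 7.6% of all genes), and for 4 of the 24 regulators (16.7%: NF2, WWC1, VGLL3 and FAT1). The numbers were not ordered alike in all of these targets. Of the 8, 5 had their highest level in number 2, 2 in number 1 (IGFBP3 and CCDC80) and 1, F3, in number 3, as CCN1, CCN2 and ANKRD1 did. For 6 of the 8 the order of the numbers was the same in siCtrl and in siNUF2.

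**Figure D5:**
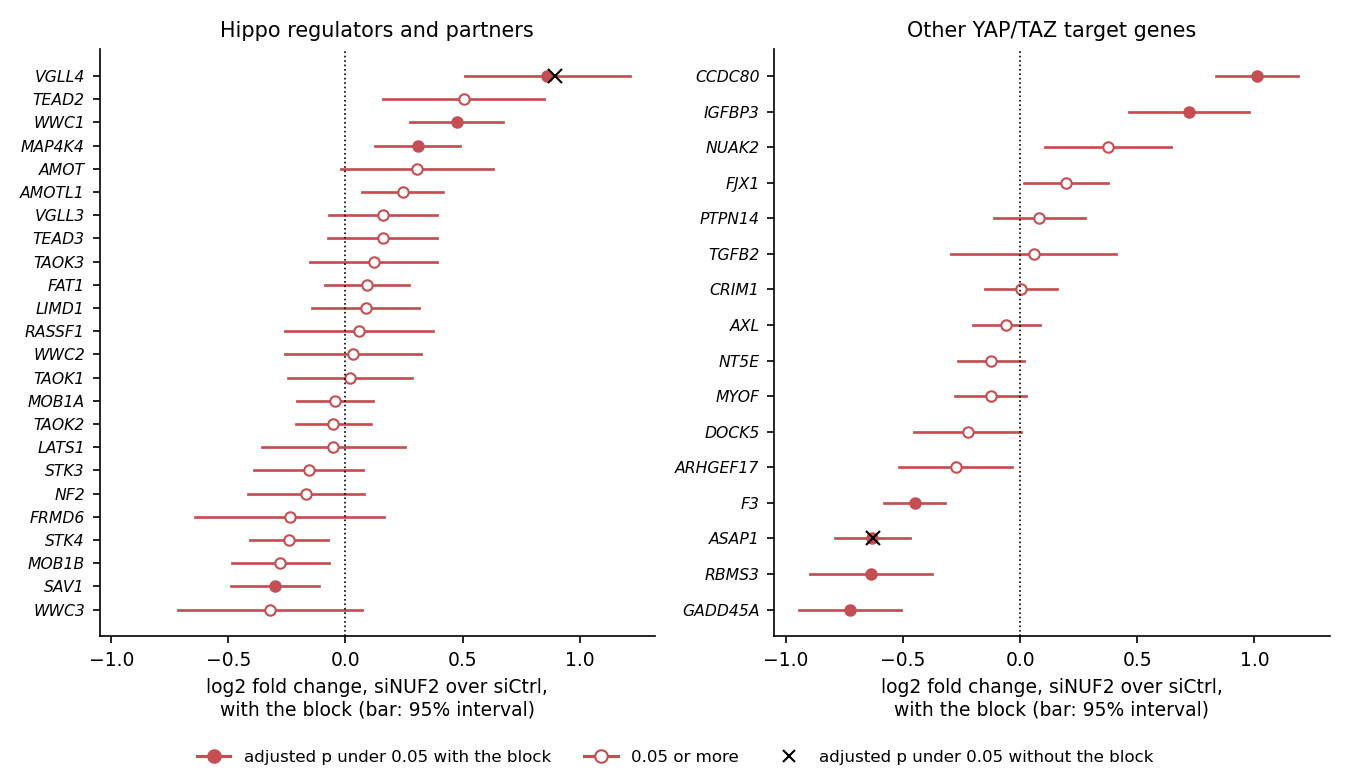
Log2 fold change, siNUF2 over siCtrl, with the replicate number as a block, of the 24 tested regulators and partners (left) and the 16 tested target genes (right), with 95% intervals. Filled points have an adjusted p under 0.05 with the block, and crosses mark genes also called without it, VGLL4 on the left and ASAP1 on the right. The filled points lie on both sides of 0 in each panel.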

How the data were processed

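The authors sequenced poly(A) RNA as paired reads. Per the labels and the study's methods, reads were cleaned with fastp, aligned to GRCh38 with HISAT2 and quantified with StringTie. Versions, annotation release, strand setting and the counting tool are not given in the sources used here. The authors deposited whole-number counts per gene without normalization, and FPKM, scaled by transcript length and library size. Table columns named KD were matched to the siNUF2 samples by their titles. The table has 12 columns of values, FPKM and counts of each library, and all were read.

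Counts were tested with edgeR 4.0.16 (R 4.3.3): TMM factors (0.987 to 1.01), a filter of mean FPKM of at least 1, and the quasi-likelihood test of group over the 11725 genes that passed, with Benjamini-Hochberg adjustment over all of them. SE is the log2 fold change over the square root of F. Single levels and ratios were compared with an exact two-sided permutation test. Between replicates of a group, chi-square over its degrees of freedom was 90.1 to 132, so no library was a copy of another. Replicate numbers pair the libraries, as the deviations of same-numbered libraries from their group means correlated at 0.344 to 0.446. Those of others correlated at -0.263 to -0.141. Deviations cancel within a group, so these negative values largely follow from the positive ones and are no separate support. The pairing comes from the labels' numbers and this check. Values with the number as a block are printed where they change a call.

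Named genes are the 10 members, NUF2, and, of both other lists, genes called without the block and the 3 largest and 3 smallest fold changes. MAP4K4 and F3 (called only with the block), NF2, VGLL3 and FAT1 (called by replicate number), TEAD3 and LATS1 fall outside this rule. They were added after their values were seen. The members and lists were chosen with earlier results of these data known. Genes that overlap a member drew at most 0.316% of its counts. DESeq2 1.42.0 and limma 3.58.1 served as alternatives, along with other filters, pseudocounts and scalings, the F-test and left-out libraries. The code was tested on simulated data. Other tools were Python 3.11.15, scipy 1.17.1 and pandas 2.3.3.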

Additional observations from a re-analysis of the deposited data

How the results depend on the processing

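The number of genes called was 468 without the block, 188 with no filter, 972 with DESeq2, 78 with the F-test and 1705 with the replicate block, and 124 to 251 when 1 library was left out. Members called were 0 in the fit of group alone, 3 with DESeq2 and 4 with the replicate block, and 0 whichever library was left out. Of the regulators and partners, 1 was called, and 0 with no filter, with a filter at a mean FPKM of 5 (VGLL4 is then not tested), with limma at either pseudocount or with the F-test, 4 with the replicate block, and 0 to 1 when 1 library was left out. Of the other targets, 1 was called, 0 with no filter or the F-test, 2 with the filter at 5, 3 with DESeq2, 6 with the replicate block, and 0 to 1 when 1 library was left out. The cause of these differences was not tested. The block changed no call of a member or listed gene other than those given with it.

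Alternatives to the blocked fit were chosen after seeing the data. Against 4 members called, 0 were called with no filter, where none of the 32985 genes was, 2 with limma (CCN1 and CCN2), 0 with no replicate block, and 2 to 4 when both libraries of a number were left out. With limma the adjusted p was 0.0592 for YAP1 and 0.0650 for WWTR1. DESeq2 with the block called 5 members, TEAD4 being the fifth (adjusted p = 0.0233). When 1 library was left out, the sign of the log2 fold change turned for TEAD1 (range -0.029 to 0.14), ANKRD1 (-0.35 to 0.17) and AJUBA (-0.015 to 0.34), and with the block, without the libraries of 1 number, for ANKRD1 (-0.15 to 0.017). None of these was called. The other members kept their sign in all alternatives run. No scaling moved the median log2 fold change of all genes by more than 0.1. Each member had at least 1174 counts per library, and the spread between 3 libraries a group limits the precision. For ANKRD1 the 95% interval, -0.76 to 0.59 without the block and -0.26 to 0.13 with it, gives the changes not excluded.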
